A study of Mus musculus with 12 samples.

Results

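Blood stem and progenitor cells of mice with a mutant Runx1 alone (Runx1mut) were compared with cells that lack miR-146a alone (miR146aKO), so that each single alteration is set against the other and not against unaltered cells. Libraries were taken by the genotype that a deposited sheet gives for each column of the count table, which yielded 3 Runx1mut and 3 miR146aKO libraries, 6 of the 12 in the series. All genes of the table were used, 24421 symbols, of which 12744 had enough counts to be tested. In each library the material was RNA of mouse bone marrow cells that carried GFP, lacked lineage markers and displayed Kit and Sca-1 (LSK), sorted from secondary recipients of transplanted stem and progenitor cells.

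The Runx1mut cells carry the frameshift allele Runx1S291fsX300 and have intact miR-146a. The miR146aKO cells lack miR-146a, have no Runx1 mutation by their label, and are titled Mir-146 KO/Empty. The other 6 libraries are miR146aKO_Runx1mut, which carry both alterations, and wildtype, titled Empty, with 3 libraries each. They entered the fit to help estimate the spread and are given only as levels. Neither what Empty stands for nor how the mutant Runx1 reached the cells is stated in the labels. Sex, age and strain of the mice are not given there either, nor whether each library is a different animal. P-values therefore measure the spread between these libraries, which may be technical.

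Runx1 is a DNA-binding transcription factor that pairs with Cbfb and is needed for the emergence of blood stem cells and for megakaryocyte and lymphoid development. Truncating RUNX1 mutations recur in human myelodysplasia and acute myeloid leukaemia. MiR-146a is a microRNA that NF-kB induces and that in turn holds back Toll-like and IL-1 receptor signalling through the adaptors Traf6 and Irak1. Mice without it develop inflammation and, with age, exhaustion of blood stem cells. The LSK gate holds stem cells and early multipotent progenitors, in which genes of mature blood cells are low.

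The microRNA that miR146aKO cells lack and its relative from another locus are shown because both pair with the same target sequences. Capitals mark the seed, bases 2 to 8 from the 5′ end, which is shared. The sequences are those of RefSeq on GRCm38.p6, from chromosome 11, 43374435 to 43374456 on the minus strand, and chromosome 19, 46342790 to 46342811 on the plus strand.
mmu-miR-146a-5p: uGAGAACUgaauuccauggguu
mmu-miR-146b-5p: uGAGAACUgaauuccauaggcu

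Total counts were 7026150, 7026393 and 5417624 in the Runx1mut libraries A021, A042 and A058, and 3540043, 4353971 and 3959581 in the miR146aKO libraries A047, A150 and A151, so the miR146aKO libraries were shallower. Values of single libraries follow these orders throughout. The libraries of a genotype were not alike. Spearman correlations over all 24421 symbols, tested or not, were 0.913 to 0.923 among Runx1mut libraries and 0.915 between A150 and A151. Between A047 and A150 or A151 they were 0.860 and 0.855, within the range between the genotypes (0.854 to 0.888). A047 held T cell genes and few macrophage genes, A150 and A151 the reverse, and A042 held stem and mast cell genes and few neutrophil genes, as given below. The mean of 4 Y-linked genes was 36.7, 42.4 and 6.54 CPM (counts scaled to library size) in Runx1mut and 60.4, 39.5 and 24.8 CPM in miR146aKO, and Xist stood at 20.9, 348 and 2772 CPM in Runx1mut and 18.6, 16.5 and 464 CPM in miR146aKO. Sex-linked transcripts thus varied within both genotypes. With the Y-linked mean as a covariate, 6 genes were called in place of the 18 given below. Reads were amplified and are not independent molecules, so counting intervals and floors cover counting error only.

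The altered genes were examined first. Runx1 (chromosome 16, 92601466 to 92826149; coordinates are on GRCm38) was measured at 199.5, 609 and 312 CPM in Runx1mut and 168, 149.8 and 98.3 CPM in miR146aKO. Each Runx1mut library lay above each miR146aKO library, and the log2 fold change was 1.43 (SE 0.45), which was not called (edgeR adjusted p = 0.169). Gene-level counts reveal neither the frameshift nor whether reads come from an added copy. Mir146 had 0 counts in all 6 libraries, and also in the 3 wildtype libraries, so it checks no label of these. The only library with Mir146 counts was A031, labelled miR146aKO_Runx1mut, with 14, and whether these reads lie inside the deleted part cannot be read from gene-level counts. A031 is part of the fit and of the miR146aKO_Runx1mut means, and without it edgeR called 19 genes, against 18 with it.

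Direct targets of miR-146a were next. Traf6, the ubiquitin ligase of Toll-like and IL-1 receptor signalling, stood at 121, 85.8 and 54.1 CPM in Runx1mut and 119, 97.03 and 66.9 CPM in miR146aKO (log2 fold change -0.11, SE 0.44, edgeR adjusted p = 0.94). Irak1, the kinase upstream of it, stood at 183, 102 and 198 CPM in Runx1mut and 173, 90.3 and 144 CPM in miR146aKO (log2 fold change 0.25, SE 0.40, adjusted p = 0.846). For both genes the libraries of the genotypes overlapped, and a rise of mRNA in miR146aKO was not detectable at this depth and spread. Irak2, a related kinase, was at 10.1, 16.2 and 34.7 CPM in Runx1mut and 51.5, 33.4 and 47.5 CPM in miR146aKO (log2 fold change -1.12, SE 0.81, adjusted p = 0.591), with A058 of Runx1mut just over A150 of miR146aKO.

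The pairing sites in these 3 mRNAs are printed, since they are where the microRNA pairs. Each is a stretch of the 3′ UTR on GRCm38 with the bases that pair with the seed in capitals, AGTTCTC, or AGTTCTCA where the base after it matches as well. Traf6 holds 4 such 8-base matches, the last at chr2:101701345-101701371 (plus strand), Irak1 2 of them, the first at chrX:74015388-74015414 (minus strand), and Irak2 1 of them, at chr6:113694252-113694278 (plus strand), with a 7-base match upstream of it.
Traf6 site 4: gactttgctactgcAGTTCTCAaacat
Irak1 site 1: gactcagaggtcaaAGTTCTCAtgctt
Irak2 site 2: ccggtgtctccgcaAGTTCTCAagttc

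The number of genes that separated the genotypes depended on the test and on the count filter. At an adjusted p under 0.05 by edgeR, 18 of 12744 genes were called (0.141%), 6 higher in Runx1mut (0.0471%) and 12 lower (0.0942%). DESeq2, run without the edgeR count filter, called 807 of 18740 tested (274 higher and 533 lower). Without that filter edgeR called 702 of 19210 (243 and 459). The genes described here as called are the 18. At an unadjusted p under 0.05 the counts were 809 higher (6.35%) and 962 lower (7.55%). The median log2 fold change of all genes tested was -0.00248. The called genes lower in Runx1mut include surface, adhesion and signalling proteins of lymphocytes and enzymes of sugar chains. Those higher include a megakaryocyte protein, a DNA helicase, a co-chaperone and regulators of kinase signalling. The 18 calls rest on 3 libraries a genotype: without A021, A150 or A151 there were 0 calls by edgeR (with 1289, 1566 and 1456 genes at an unadjusted p under 0.05), without A042 3 and without A058 5, whereas without A047 there were 130. These fits also tested more genes, from 13408 (without A151) to 13507 (without A021), against 12744. Each of the 18 kept its direction in every one of them. The fold change itself moved by more than 1.5 times for 4 of them when 1 library was left out, with log2 values that became -11.23 without A058 and -9.62 without A150 for Fcer2a, -10.54 without A021 for Chst3, -6.20 without A058 for Cd2 and 10.78 without A151 for Tmem40.

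**Figure D1:**
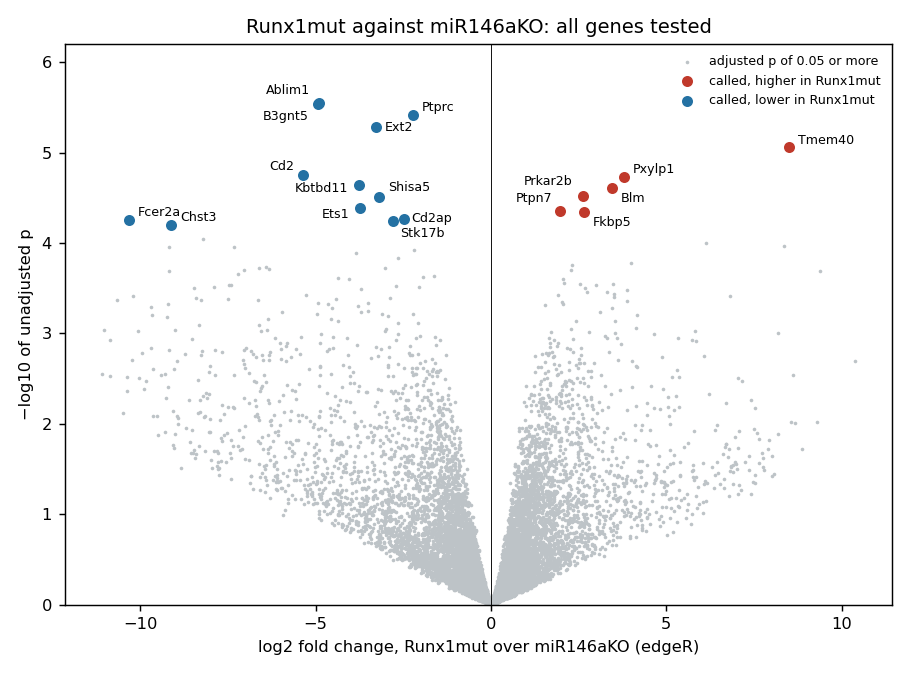
Each point is 1 of the 12744 genes tested, with the log2 fold change of Runx1mut over miR146aKO on the x axis and -log10 of the unadjusted edgeR p on the y axis; red marks the 6 genes called higher in Runx1mut, blue the 12 called lower. Fcer2a lies farthest left of the called genes, at -10.32, and Tmem40 farthest right, at 8.49.

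Of the 6 genes that rose in Runx1mut relative to miR146aKO, Tmem40 (chromosome 6, 115729131 to 115762410), a membrane protein of megakaryocytes and platelets, had the widest gap. It stood at 43.3, 58.5 and 16.1 CPM in Runx1mut, against 0, 0 and 0.243 CPM in miR146aKO. That is 810 counts in Runx1mut and 1 count in miR146aKO, a ratio of 464 with a 95% counting interval of 83.0 to 18340 (edgeR adjusted p = 0.0223). Its mean level was under the minimum of the rule for named genes, so it is named because it was called. Wildtype libraries held it at 26.9 ± 21.7 CPM.

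The proteins of another pair act on DNA and in hormone signalling. Blm (chromosome 7, 80454733 to 80535119), the RecQ helicase that guards against exchange between chromatids, stood at 73.1, 77.5 and 48.2 CPM in Runx1mut and 4.74, 7.74 and 5.598 CPM in miR146aKO (log2 fold change 3.45, SE 0.56, edgeR adjusted p = 0.0349). Fkbp5 (chromosome 17, 28399094 to 28517527), a co-chaperone of the glucocorticoid receptor, stood at 170.3, 153 and 107 CPM in Runx1mut and 25.9, 13.8 and 28.7 CPM in miR146aKO (log2 fold change 2.65, SE 0.46, adjusted p = 0.0412). In both the lowest Runx1mut library was several times above the highest miR146aKO library.

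Regulators of kinase signalling made up part of the rest. Prkar2b (chromosome 12, 31958476 to 32061296), a regulatory subunit of protein kinase A, was at 98.05, 181 and 148 CPM in Runx1mut and 24.7, 22.3 and 21.9 CPM in miR146aKO (log2 fold change 2.63, SE 0.44, edgeR adjusted p = 0.0356). Ptpn7 (chromosome 1, 135132700 to 135145317), a phosphatase of MAP kinases in blood cells, was at 233, 291 and 229 CPM in Runx1mut and 59.7, 73.6 and 59.9 CPM in miR146aKO (log2 fold change 1.96, SE 0.34, adjusted p = 0.0412). For neither gene did a Runx1mut library come near a miR146aKO library. Pxylp1 (chromosome 9, 96823336 to 96892669), a phosphatase of the sugar chain that links proteoglycans, ranged more widely, from 33.6 to 166 CPM in Runx1mut and from 4.36 to 8.76 CPM in miR146aKO (log2 fold change 3.80, SE 0.60, adjusted p = 0.0335).

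Next by p among named genes higher in Runx1mut, and not called, were Zfp111, Cntln, Hmgn2, Uchl5, Mctp1, Gsr and Bora. Their adjusted p ran from 0.0719 to 0.0758 by edgeR. Hmgn2, a nucleosome-binding protein, was at 251, 87.2 and 157 CPM in Runx1mut and 30.3, 35.1 and 35.3 CPM in miR146aKO. Bora, which helps switch on the mitotic kinase Plk1, was at 43.99, 37.4 and 39.2 CPM in Runx1mut and 9.48, 5.57 and 5.598 CPM in miR146aKO. The libraries do not overlap for either gene. Gsr, glutathione reductase, was at 906, 88.1 and 869 CPM in Runx1mut and 81.5, 52.02 and 33.8 CPM in miR146aKO, with A042 close to the miR146aKO libraries.

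The 12 genes that fell in Runx1mut relative to miR146aKO include the common surface phosphatase of white blood cells. Ptprc (chromosome 1, 138062861 to 138175708), which encodes CD45, stood at 210.0, 254 and 271 CPM in Runx1mut and 1105, 1085 and 1268 CPM in miR146aKO, tight in both genotypes (log2 fold change -2.23, SE 0.31, edgeR adjusted p = 0.0163). Cd2 (chromosome 3, 101275899 to 101287939), an adhesion receptor of T cells, NK cells and B cell precursors, was at 1.28, 0.996 and 3.94 CPM in Runx1mut and 95.5, 78.4 and 82.8 CPM in miR146aKO (log2 fold change -5.36, SE 0.85, adjusted p = 0.0335). Cd2ap (chromosome 17, 42792951 to 42876665), a scaffold that binds the tail of CD2 and actin, was at 52.1, 37.7 and 34.05 CPM in Runx1mut and 198, 249 and 248 CPM in miR146aKO (log2 fold change -2.49, SE 0.44, adjusted p = 0.043). For Cd2 the gap between the genotypes spans more than an order of magnitude in every pair of libraries.

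Lymphocyte regulators follow. Ets1 (chromosome 9, 32636221 to 32757820), a transcription factor of T, B and NK cells, was at 22.6, 10.7 and 12.7 CPM in Runx1mut and 186, 261 and 163 CPM in miR146aKO (log2 fold change -3.73, SE 0.64, edgeR adjusted p = 0.0412). Stk17b (chromosome 1, 53755506 to 53785224), a kinase of lymphocytes, was at 105, 83.8 and 54.4 CPM in Runx1mut and 311, 563 and 809 CPM in miR146aKO (log2 fold change -2.79, SE 0.49, adjusted p = 0.043). Fcer2a (chromosome 8, 3681737 to 3694175), the low-affinity IgE receptor CD23 of mature B cells, had 0, 0.142 and 0.342 CPM in Runx1mut and 8.85, 398 and 270.2 CPM in miR146aKO, with A047 far under A150 and A151. Its counts were 3 in Runx1mut and 2782 in miR146aKO, a ratio of 0.000617 with a 95% counting interval of 0.000127 to 0.00181 (adjusted p = 0.043).

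Enzymes that build sugar chains form another part of the 12. B3gnt5 (chromosome 16, 19760208 to 19772753), which starts the lacto and neolacto chains of glycolipids, was at 3.12, 1.28 and 2.74 CPM in Runx1mut and 81.5, 60.2 and 79.1 CPM in miR146aKO (log2 fold change -4.94, SE 0.66, edgeR adjusted p = 0.0163). Ext2 (chromosome 2, 93661028 to 93822568), of the heparan sulphate polymerase, was at 49.2, 65.7 and 41.7 CPM in Runx1mut and 473, 649 and 405 CPM in miR146aKO (log2 fold change -3.28, SE 0.46, adjusted p = 0.0167). It overlaps Alx4 on the other strand, and since strand was not kept its value can hold reads of both. Chst3 (chromosome 10, 60181532 to 60219260), a sulphotransferase of chondroitin, was at 0.568, 0.142 and 0 CPM in Runx1mut and 22.8, 186 and 241 CPM in miR146aKO, where A042 and A058 of Runx1mut lie under the floor of 3 counts (adjusted p = 0.0449).

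The last 3 are Ablim1, Shisa5 and Kbtbd11. Ablim1 (chromosome 19, 57032733 to 57314919), an actin-binding protein that overlaps 4930449E18Rik on the other strand, was at 7.09, 6.97 and 12.3 CPM in Runx1mut and 220.0, 232 and 339.8 CPM in miR146aKO (log2 fold change -4.91, SE 0.66, edgeR adjusted p = 0.0163). Shisa5 (chromosome 9, 109038565 to 109057777), a death-promoting protein of the endoplasmic reticulum that p53 induces, was at 52.9, 135 and 160.1 CPM in Runx1mut and 1107, 1187 and 906 CPM in miR146aKO (log2 fold change -3.20, SE 0.53, adjusted p = 0.0356). Kbtbd11 (chromosome 8, 15011025 to 15033333), a protein with BTB and kelch repeats, was at 12.8, 10.8 and 22.8 CPM in Runx1mut and 299, 213 and 114 CPM in miR146aKO (log2 fold change -3.75, SE 0.61, adjusted p = 0.0349). All 3 had every Runx1mut library under every miR146aKO library.

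The remaining libraries give the position of the other genotypes for the 18 genes. Wildtype means were nearer to Runx1mut than to miR146aKO for 16 of the 18 (88.9%), against 7999 of all 12744 genes (62.8%), and miR146aKO_Runx1mut means were nearer to Runx1mut for 18 of 18, against 64.8% of all genes. The calls chose these genes by their gap between Runx1mut and miR146aKO, so these shares are a description. For Ptprc the means were 349 ± 73.7 CPM in miR146aKO_Runx1mut and 317 ± 58.5 CPM in wildtype, close to Runx1mut at 245 ± 31.4 CPM and under miR146aKO at 1153 ± 101 CPM (SD, n = 3 each). The exceptions were B3gnt5, with wildtype at 43.3 ± 13.9 CPM, and Ablim1, with wildtype at 61.5 ± 19.04 CPM, both nearer to miR146aKO on the log2 scale. Runx1mut averaged 2.38 ± 0.971 CPM and miR146aKO 73.6 ± 11.7 CPM for B3gnt5, and Runx1mut averaged 8.79 ± 3.05 CPM and miR146aKO 264 ± 65.97 CPM for Ablim1.

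**Figure D2:**
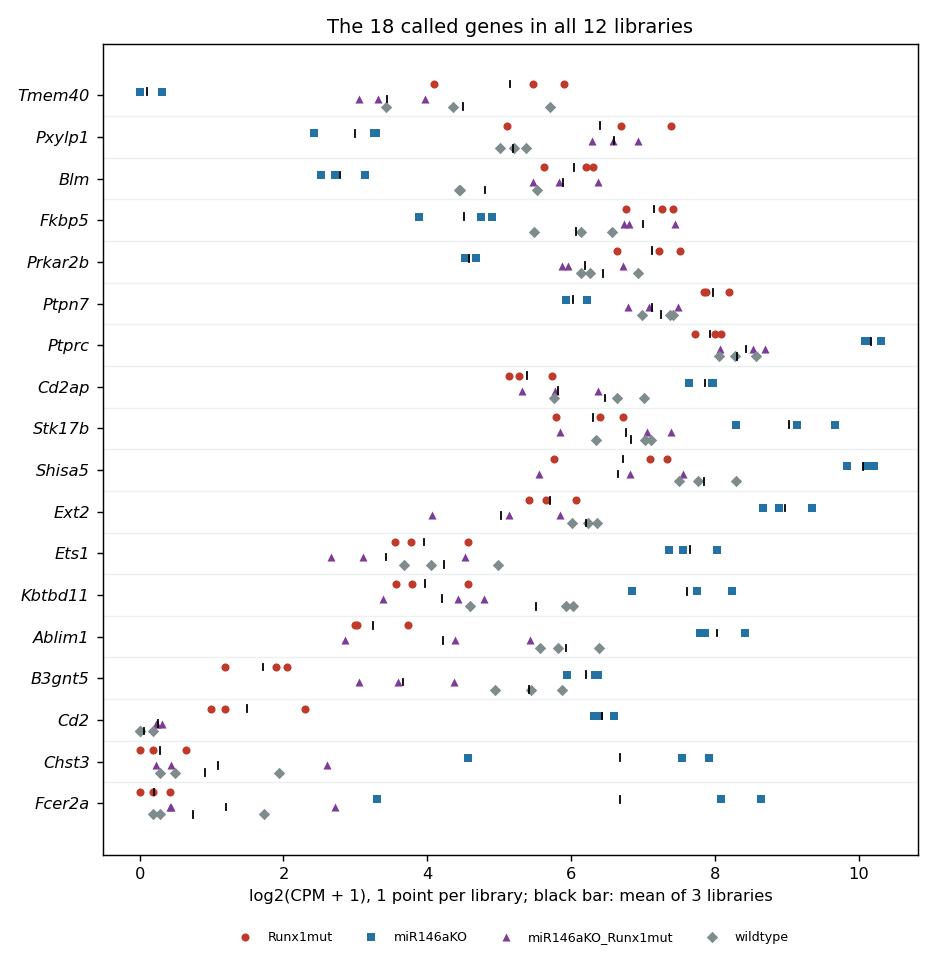
Levels of the 18 called genes, as log2(CPM + 1) on the x axis, with 1 point per library and a black bar at the mean of 3 libraries; rows run from the largest positive to the largest negative fold change. Runx1mut (circles) lies right of miR146aKO (squares) without overlap in the upper 6 rows and left of it in the lower 12, and miR146aKO_Runx1mut (triangles) and wildtype (diamonds) lie mostly toward Runx1mut.

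Gene lists of blood cell types and pathways were then described by counts, over 717 genes in 37 lists. Of these, 658 were tested, 52 were under the count filter, and 7 symbols were not analysed here. A gene that passed the filter only through the genotype where it is high had to differ, so the counts below describe those tested and support nothing further. As background, 11.3% of all tested genes had all 3 Runx1mut libraries above all 3 miR146aKO libraries and 10.4% had them below, and the median of all genes is close to 0. The level of a list in a library is its members' log2 CPM averaged over those tested. Among genes named below, B2m, Cxcr5, Selp, Cd34 and Runx2 overlap another counted gene on the other strand, so their values can hold its reads. In bulk RNA, fewer cells of a type and less RNA of its genes per cell cannot be told apart.

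**Figure D3:**
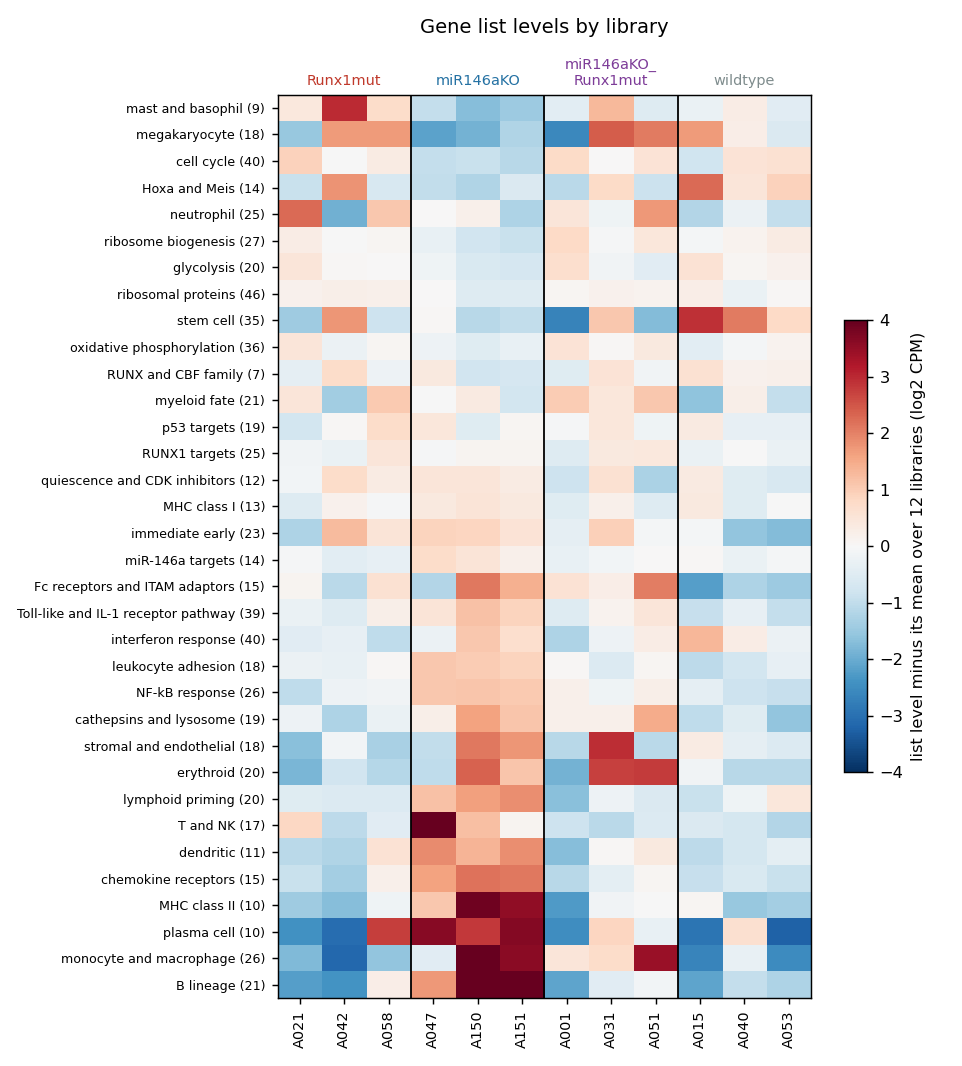
Level of 34 gene lists (rows, number of tested genes in brackets) in each library (columns), as mean log2 CPM minus the mean over all 12 libraries, in red above and blue below it, with colours ending at 4 log2 units; rows are ordered by the difference between Runx1mut and miR146aKO. The B lineage row shows 0.67, 0.50 and 3.15 (levels) in Runx1mut and 4.61, 7.60 and 7.76 in miR146aKO, and columns of one genotype differ among themselves, A047 from A150 and A151 and A042 from A021 and A058.

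B lineage genes lay on the lower side. All 21 tested B lineage genes were on the lower side in Runx1mut, with a median log2 fold change of -5.66, and 17 had no overlap between the genotypes. With the Y-linked covariate 20 of 21 were on the lower side. Fcer2a is the called member. The list level was 1.44 ± 1.48 in Runx1mut and 6.65 ± 1.77 in miR146aKO (SD, n = 3 each). Wildtype stood at 1.445 and miR146aKO_Runx1mut at 1.98, both nearer to Runx1mut. The summed CPM of the 22 genes of the list ran from 178 to 1311 in Runx1mut and from 5621 to 6933 in miR146aKO. Vpreb2 was at 0 in all Runx1mut libraries. Cd79b, which carries the signal of the B cell receptor, was at 17.9, 11.95 and 74.4 CPM in Runx1mut and 129, 617 and 751 CPM in miR146aKO (edgeR adjusted p = 0.0659), and Cd22, a co-receptor that damps it, at 0.142, 0.427 and 5.304 CPM in Runx1mut and 57.2, 439 and 486 CPM in miR146aKO (adjusted p = 0.0758). Blk, a kinase of B cells, was at 0.142, 0.142 and 0.171 CPM in Runx1mut and 3.16, 100.4 and 166 CPM in miR146aKO (adjusted p = 0.108). In each of the 3 genes A047 was the lowest miR146aKO library and lay above every Runx1mut library.

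Antigen presentation and plasma cell genes lay the same way. All 10 tested MHC class II genes were on the lower side in Runx1mut, 7 without overlap and 0 called, with a median of -4.05. The list level was 3.975 in Runx1mut and 7.91 in miR146aKO, against 4.135 in wildtype and 4.26 in miR146aKO_Runx1mut. H2-Ab1, a chain of the class II molecule, was at 154, 70.99 and 363 CPM in Runx1mut and 649, 4241 and 3268 CPM in miR146aKO (edgeR adjusted p = 0.0801). The 13 MHC class I genes had a smaller median of -0.61 with 11 on the lower side, and B2m, their shared light chain, was at 1874, 2392 and 3295 CPM in Runx1mut and 6308, 5219.9 and 4852 CPM in miR146aKO (adjusted p = 0.184). All 10 plasma cell genes were on the lower side, but library A058 of Runx1mut had a list level of 7.07, against 1.88 and 1.27 in A021 and A042 and 7.16 to 7.98 in miR146aKO. Their median was -1.74, and -7.03 without A058. With the Y-linked covariate it was -0.85, with 3 of the 10 on the higher side, and without A021 or A042 1 of the 10 was on the higher side.

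T and NK genes depended on 1 library. Of 17 tested (10 of the 27 listed were not), 16 were on the lower side with a median of -3.05, but without A047 the median was 0.89. Cd3e, part of the CD3 complex of T cells, was at 2.84, 0 and 2.05 CPM in Runx1mut and 644, 8.71 and 2.68 CPM in miR146aKO (edgeR adjusted p = 0.116), with A047 far above the other libraries. Ccl5, a chemokine of T and NK cells, behaved likewise, with 0.568, 3.13 and 6.501 CPM in Runx1mut and 776, 7.26 and 6.57 CPM in miR146aKO (adjusted p = 0.204). Cd4, by contrast, was above the Runx1mut libraries in each miR146aKO library, with 6.101, 0.427 and 1.88 CPM in Runx1mut and 226, 297 and 158 CPM in miR146aKO (adjusted p = 0.116). Cd2, described above, is the called member and was high in all 3 miR146aKO libraries. The summed CPM of the list ran from 192 to 372 in Runx1mut and from 515 to 3572 in miR146aKO.

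Macrophage genes followed the other miR146aKO libraries. All 26 tested monocyte and macrophage genes were on the lower side in Runx1mut, 15 without overlap and 0 called, with a median of -5.22. The list level was 2.58 in Runx1mut and 7.16 in miR146aKO, against 2.93 in wildtype and 6.30 in miR146aKO_Runx1mut. Hmox1, haem oxygenase, was at 2.696, 1.42 and 2.22 CPM in Runx1mut and 32.2, 1157 and 1075 CPM in miR146aKO (edgeR adjusted p = 0.0758), and C1qb, of complement C1q, at 3.83, 0.854 and 1.54 CPM in Runx1mut and 42.4, 1296 and 826 CPM in miR146aKO (adjusted p = 0.078). Spic, the transcription factor of red pulp and marrow macrophages that handle iron, was at 0.284, 0.711 and 0 CPM in Runx1mut and 2.53, 179 and 139.7 CPM in miR146aKO (adjusted p = 0.0603). A047 lay between the Runx1mut libraries and the pair A150 and A151 in all 3. The summed CPM of the list ran from 349 to 1352 in Runx1mut and from 1974 to 20396 in miR146aKO. Fc receptors and their adaptors had 10 of 15 on the lower side (median -1.53). Cathepsin and lysosome genes had 18 of 19 on the lower side (median -1.61, 8 without overlap, 0 called), and Ctsd, a major lysosomal protease, was at 275, 467 and 217 CPM in Runx1mut and 511, 3636 and 2247 CPM in miR146aKO (adjusted p = 0.15).

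Dendritic, erythroid and stromal markers were also mostly on the lower side in Runx1mut. Dendritic genes had 9 of 11 tested on the lower side (5 of 16 were not tested), with a median of -1.38, and -3.40 without A058, and their levels did not overlap, at 2.41, 2.27 and 4.05 in Runx1mut and 5.37, 4.84 and 5.36 in miR146aKO. Erythroid genes had 16 of 20 on the lower side (median -2.70, and -4.52 without A042), with levels of 0.64, 1.69 and 1.33 in Runx1mut and 1.44, 4.82 and 3.58 in miR146aKO. Stromal and endothelial genes had 13 of 18 on the lower side (median -2.76, and -5.41 without A042), with levels of 0.34, 1.89 and 0.70 in Runx1mut and 1.02, 4.13 and 3.77 in miR146aKO. The 4 globin genes of the erythroid list were at 0 counts in all 6 libraries. These cells should lack the lineage markers of the gate, and the part of mature or stromal cells in the differences between the genotypes was not tested.

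**Figure D4:**
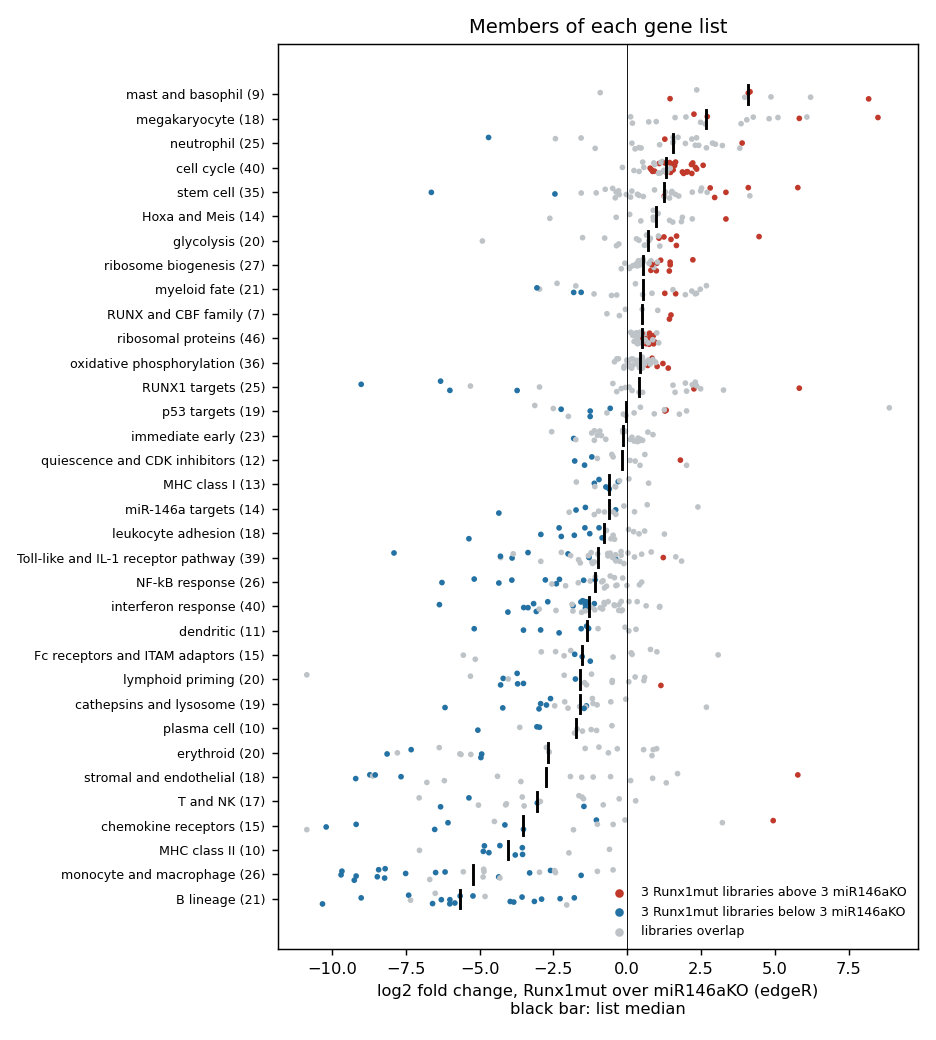
Log2 fold change of Runx1mut over miR146aKO (x axis) for each tested member of the 34 lists (rows), coloured red where all 3 Runx1mut libraries lie above all 3 miR146aKO libraries, blue where they lie below and grey where they overlap, with the list median as a black bar. The B lineage and macrophage rows lie wholly left of 0 and the megakaryocyte and ribosomal protein rows wholly right of it, with the ribosomal proteins close to 0 at a median of 0.49.

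Signalling genes under the control of NF-kB and the Toll-like receptors were also mostly lower in Runx1mut, none of them called. Of 26 tested NF-kB response genes 24 were on the lower side, 9 without overlap, with a median of -1.08. List levels were 3.74 ± 0.48 in Runx1mut and 5.25 ± 0.03 in miR146aKO (SD, n = 3 each). Wildtype stood at 3.47 ± 0.30 and miR146aKO_Runx1mut at 4.27 ± 0.22. Il6, Cxcl1 and Cxcl2 of this list were under the count filter and lay the other way. They had 21, 5 and 20 counts in Runx1mut and 3, 0 and 0 in miR146aKO. Without a count filter 6 of the 29 listed were on the higher side and 23 on the lower, with a median of -0.85. Relb, an NF-kB subunit, was at 1.99, 1.85 and 0.855 CPM in Runx1mut and 59.4, 22.3 and 15.6 CPM in miR146aKO (edgeR adjusted p = 0.0949), and Nfkbie, an inhibitor of the pathway, at 8.797, 21.3 and 18.5 CPM in Runx1mut and 53.1, 71.9 and 114 CPM in miR146aKO (adjusted p = 0.116). Of 39 genes that act in Toll-like or IL-1 receptor signalling, 32 were on the lower side, with a median of -0.9996, and -0.64 with the Y-linked covariate. Tlr9, which senses microbial DNA, was at 0.568, 0 and 0.342 CPM in Runx1mut and 50.9, 128 and 53.8 CPM in miR146aKO (adjusted p = 0.0758), and Tlr4, the receptor for lipopolysaccharide, at 31.5, 15.9 and 7.87 CPM in Runx1mut and 47.7, 95.8 and 78.9 CPM in miR146aKO (adjusted p = 0.212). B cells and macrophages also express many of these genes, and the part of the markers above in this difference was not tested.

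Interferon response genes, miR-146a targets and adhesion genes gave similar counts. Of 40 interferon response genes 35 were on the lower side, 15 without overlap, with a median of -1.30. Their levels were 3.54 ± 0.36 in Runx1mut and 4.64 ± 0.66 in miR146aKO (SD, n = 3 each). Wildtype, at 4.60 ± 0.79, was nearer to miR146aKO, and miR146aKO_Runx1mut, at 3.77 ± 0.78, was nearer to Runx1mut. Samhd1, which destroys nucleotides that viruses need, was at 104, 199.8 and 195 CPM in Runx1mut and 315, 581 and 584 CPM in miR146aKO (edgeR adjusted p = 0.129). The list of reported miR-146a targets had 11 of 14 on the lower side and 0 called, with a median of -0.63, and -0.31 without A151 or -0.40 without A047. Notch2, a target and a receptor that guides B cell fate, was at 201, 303 and 140.5 CPM in Runx1mut and 363, 858 and 925 CPM in miR146aKO (edgeR adjusted p = 0.167). Of 18 leukocyte adhesion genes 13 were on the lower side, with Ptprc and Cd2 called and a median of -0.78, and their levels were 6.18 ± 0.17 in Runx1mut and 7.34 ± 0.10 in miR146aKO (SD, n = 3 each). Chemokine receptors had 13 of 15 on the lower side with a median of -3.52, and Cxcr5, which draws B cells to follicles, was at 0, 0.142 and 1.37 CPM in Runx1mut and 16.8, 56.9 and 67.7 CPM in miR146aKO (adjusted p = 0.116).

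The lymphoid priming list, meant for genes that early progenitors switch on before they commit, had 15 of 20 on the lower side with a median of -1.60. Ets1, described above as a factor of T, B and NK cells, was called among them. Ccr7, also a member, was at 0 CPM in all Runx1mut libraries and at 0, 81.3 and 45.3 CPM in miR146aKO. The part of mature cells in this list was not tested. The levels were nearly constant within Runx1mut, at 3.94, 3.89 and 3.87, and higher in each miR146aKO library, at 5.61, 6.05 and 6.29. Mef2c, a transcription factor of lymphoid progenitors, was at 49.8, 127 and 84.3 CPM in Runx1mut and 196, 315 and 372 CPM in miR146aKO (edgeR adjusted p = 0.13). Wildtype had a list level of 4.21 and miR146aKO_Runx1mut of 3.60.

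On the other side, cell division genes were higher in Runx1mut. Of 40 cell cycle genes 39 were on the higher side and 25 had no overlap, with a median of 1.32, 21 at an unadjusted p under 0.05 and 0 called. Levels were 7.38, 6.42 and 6.79 in Runx1mut and 5.51, 5.56 and 5.36 in miR146aKO, so even the lowest Runx1mut library, A042, lay above every miR146aKO library. Cenpf, a kinetochore protein, was at 283, 218 and 176 CPM in Runx1mut and 59.7, 55.2 and 49.7 CPM in miR146aKO (edgeR adjusted p = 0.0789). Tpx2, which activates Aurora A on the spindle, was at 281, 121 and 144 CPM in Runx1mut and 11.1, 54.9 and 25.8 CPM in miR146aKO (adjusted p = 0.116). Blm and Bora, described above, are not members of this list. Means were 6.58 ± 0.80 in wildtype and 6.90 ± 0.38 in miR146aKO_Runx1mut (SD, n = 3 each). Both means were nearer to Runx1mut (6.87 ± 0.48) than to miR146aKO (5.47 ± 0.10). The wildtype libraries A015, A040 and A053 stood at 5.66, 7.015 and 7.067, so A015 lay close to the miR146aKO libraries.

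Genes of protein synthesis and energy use showed small differences in the same direction. All 46 ribosomal protein genes were on the higher side in Runx1mut, 17 without overlap and 0 called, with a median of only 0.49, and their levels were 9.34 ± 0.04 in Runx1mut and 8.80 ± 0.31 in miR146aKO (SD, n = 3 each), with A047 at 9.16 nearest to Runx1mut. Ribosome biogenesis genes had 25 of 27 on the higher side (median 0.54, and 0.95 without A047), and Dkc1, the pseudouridine synthase of ribosomal and telomerase RNA, was at 264, 209.8 and 227 CPM in Runx1mut and 81.9, 105 and 69.1 CPM in miR146aKO (edgeR adjusted p = 0.116). Dkc1 overlaps Mpp1 on the other strand. Glycolysis genes had 15 of 20 on the higher side (median 0.69), and Pkm, pyruvate kinase, was at 671, 330.4 and 579 CPM in Runx1mut and 203, 152 and 144 CPM in miR146aKO (adjusted p = 0.109). Oxidative phosphorylation genes had 29 of 36 on the higher side (median 0.44, and 0.23 without A021).

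Megakaryocyte genes were mostly on the higher side in Runx1mut. All 18 tested were (3 of 21 were not tested), of which Tmem40 was called and 4 had no overlap, with a median of 2.67. Without a count filter 18 were on the higher and 3 on the lower side, with limma-voom 16 and 2, and without A042 15 and 3. Itga2b, the platelet integrin CD41, was at 89.4, 1112 and 349 CPM in Runx1mut and 13.3, 2.18 and 11.9 CPM in miR146aKO (edgeR adjusted p = 0.108). Nfe2, a transcription factor of platelet formation, was at 96.8, 114 and 82.3 CPM in Runx1mut and 7.902, 28.8 and 24.3 CPM in miR146aKO (adjusted p = 0.116), and Selp, the adhesion molecule P-selectin, at 103, 179 and 134 CPM in Runx1mut and 49.6, 5.57 and 8.76 CPM in miR146aKO (adjusted p = 0.161). The list level was 2.60 in A021, within the miR146aKO range of 1.99 to 2.91, but 5.85 in both A042 and A058. Tubb1 and Myl9 were at 0 counts in all Runx1mut libraries.

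Mast cell and basophil genes were high above all in A042. Of 9 tested (6 of 15 were not), 8 were on the higher side and 0 called, with a median of 4.10, and 2.02 without A042. Cpa3, carboxypeptidase of mast cell granules, was at 79.7, 1419 and 70.3 CPM in Runx1mut and 0.632, 2.42 and 2.19 CPM in miR146aKO (edgeR adjusted p = 0.109). Hdc, the enzyme that makes histamine, was at 135, 265 and 348 CPM in Runx1mut and 33.2, 3.87 and 5.11 CPM in miR146aKO (adjusted p = 0.088). Both were above miR146aKO in every Runx1mut library. Under the count filter, and so not tested, were Cma1, a mast cell protease, with 0, 2693 and 0 counts in Runx1mut and 1, 0 and 0 in miR146aKO, and Fcer1a, a chain of the high-affinity IgE receptor, with 1, 1039 and 0 counts in Runx1mut and 0, 0 and 2 in miR146aKO.

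Neutrophil genes split the Runx1mut libraries. Of 25 tested, 21 were on the higher side with a median of 1.56, and 0.38 without A021, and 0 were called. Levels were 8.499, 4.313 and 7.325 in Runx1mut and 6.26, 6.44 and 5.01 in miR146aKO, so A042 lay under every miR146aKO library while A021 and A058 lay above them. Ms4a3, a marker of granulocyte and monocyte progenitors, was at 905, 50.6 and 757 CPM in Runx1mut and 94.2, 24.9 and 3.16 CPM in miR146aKO (edgeR adjusted p = 0.229). Anxa1, the anti-inflammatory annexin of neutrophils, was at 606, 77.8 and 1712 CPM in Runx1mut and 55.9, 56.4 and 49.2 CPM in miR146aKO (adjusted p = 0.0772), without overlap. Anxa1 overlaps 1500015L24Rik on the other strand. Genes of myeloid fate decisions had 12 of 21 on the higher side with a median of 0.52, from 0.07 without A021 to 1.10 without A150. The receptor of G-CSF, Csf3r, was at 182, 82.8 and 139 CPM in Runx1mut and 39.2, 79.6 and 48.7 CPM in miR146aKO (adjusted p = 0.287).

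Stem cell genes rested on A042 as well. Of 35 tested, 24 were on the higher side in Runx1mut with a median of 1.25, or 0.92 with Ndn, which is at 0 in miR146aKO, put at its bound, and -0.72 without A042. Levels were 2.71, 5.92 and 3.33 in Runx1mut and 4.20, 3.03 and 3.17 in miR146aKO. Wildtype stood at 6.08. Hoxa and Meis genes had 12 of 14 on the higher side with a median of 0.97, and -0.41 without A042, and Meis1, a cofactor of Hox proteins, was at 15.2, 285 and 36.8 CPM in Runx1mut and 50.9, 4.84 and 17.8 CPM in miR146aKO (edgeR adjusted p = 0.493).

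The markers of the sorting gate lay in opposite directions. Kit was at 113, 711 and 101 CPM in Runx1mut and 59.7, 47.7 and 24.6 CPM in miR146aKO, without overlap (log2 fold change 2.81, SE 0.68, edgeR adjusted p = 0.108). Ly6a, which encodes Sca-1 and which interferon raises, was at 20.4, 222 and 172 CPM in Runx1mut and 1019, 505 and 742 CPM in miR146aKO, also without overlap (log2 fold change -2.45, SE 0.91, adjusted p = 0.243). Neither was called. The wildtype means were 339 ± 111 CPM for Kit and 142 ± 87.04 CPM for Ly6a (SD, n = 3 each), so Kit was low in miR146aKO and Ly6a high in miR146aKO relative to the other genotype means. Cd34, which marks multipotent progenitors, was at 78.6, 622 and 74.4 CPM in Runx1mut and 74.9, 30.5 and 30.2 CPM in miR146aKO (adjusted p = 0.224), with A042 alone far above the rest.

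RUNX family genes and targets of RUNX1 were divided. Of 7 RUNX and CBF genes 4 were on the higher side, with a median of 0.51, and -0.37 without A042, and Cbfb, the partner of Runx1, was at 159, 121 and 113 CPM in Runx1mut and 66.7, 124 and 85.9 CPM in miR146aKO (edgeR adjusted p = 0.583). Runx2, the relative known for bone formation, was at 161, 328 and 231 CPM in Runx1mut and 136, 40.2 and 82.03 CPM in miR146aKO (adjusted p = 0.29). Of 25 tested RUNX1 targets 15 were on the higher side and 10 on the lower, with a median of 0.40 that ran from 0.08 without A151 to 1.05 without A047. Itga2b, above, and Ets1, called, lie on opposite sides of 0 in this list. The medians of p53 targets (-0.04 of 19), quiescence genes and inhibitors of cyclin-dependent kinases (-0.19 of 12) and immediate early genes (-0.15 of 23) stood near that of all genes, with 0 called. Members lay on both sides, with 9 p53 targets higher and 10 lower, 6 and 6 quiescence genes and inhibitors, and 10 and 13 immediate early genes. Among the quiescence genes and inhibitors, Cdkn1a had a log2 fold change of 2.01 and Btg1 of -1.45. The medians turned or grew when single libraries were left out, with p53 targets at 0.58 without A151 and immediate early genes at -1.01 without A042.

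Pairing sites for miR-146a were counted across all 3′ UTRs, since the microRNA is present in Runx1mut and absent from miR146aKO. Of 11698 tested genes with an annotated 3′ UTR, 544 (4.65%) held an 8-base match and 949 a 7-base match only. The median log2 fold change of Runx1mut over miR146aKO was -0.0621 with an 8-base match, -0.0826 with a 7-base match only and 0.00957 with none, and for 199 genes with more than 1 match it was -0.155. The shares on the lower side were 52.2%, 53.8%, 49.7% and 59.8% in the same order, and 50.1% for all 11698. These medians are a description, with no test. Genes with a match have longer 3′ UTRs, with medians of 2673 and 2670 bases for the 8-base and 7-base classes and 1033 bases for no match, and the part of length in these medians was not tested.

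Of the 18 called genes, 5 (27.8%) held a match, against 12.8% of all 11698. They were Ablim1, B3gnt5 and Ets1, lower in Runx1mut than in miR146aKO, and Blm and Fkbp5, higher in Runx1mut than in miR146aKO. The sites of the 3 lower genes are shown with the matched bases in capitals. These are 8 bases in B3gnt5 (chr16:19770387-19770413, plus strand) and 7 in Ets1 (chr9:32755522-32755548, plus strand) and Ablim1 (chr19:57034930-57034956, minus strand). A match is a description and not a proven site.
B3gnt5: aagtaagaatttcaAGTTCTCAtttgg
Ets1: aaactaacattctcAGTTCTCctctac
Ablim1: gactatttgaactcAGTTCTCcatcta

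**Figure D5:**
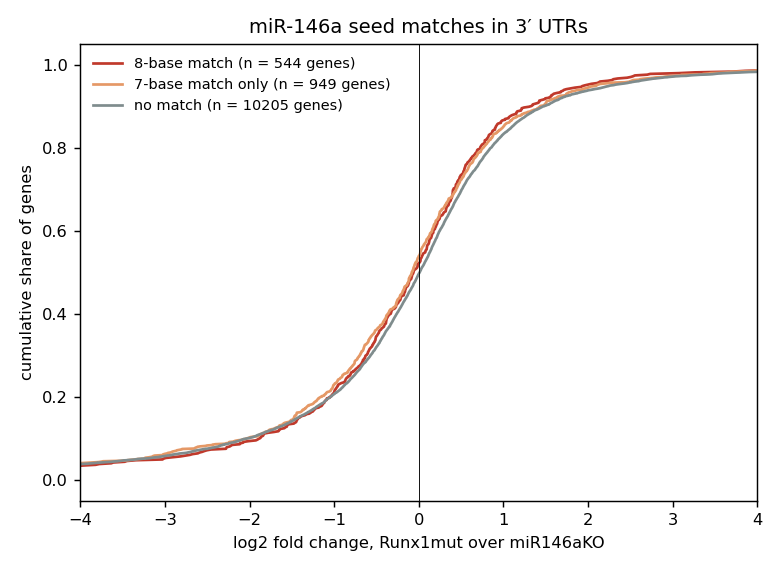
Cumulative share of genes (y axis) up to each log2 fold change of Runx1mut over miR146aKO (x axis, shown from -4 to 4), for genes with an 8-base miR-146a seed match in the 3′ UTR (n = 544), a 7-base match only (n = 949) or none (n = 10205). The medians are -0.0621 with an 8-base match, -0.0826 with a 7-base match only and 0.00957 with none.

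The sequence that RUNX proteins bind, TGTGGT or ACCACA on the other strand, was looked for in promoters, 250 bases before to 50 after each RefSeq transcription start. It was held by 16.8% of 32851 RefSeq promoters, and by at least 1 promoter of 15.7% of the 9727 tested genes with an entry. Among called genes 15 had an entry and 4 (26.7%) a match, 1 of 6 higher in Runx1mut and 3 of 9 lower. These 4, Ablim1, Fcer2a, Shisa5 and Tmem40, each have more than 1 promoter, which gives more places for a match. Counted by promoter, 6 of 29 promoters of called genes held the motif (20.7%), near the 16.8% of all promoters. Tmem40 has 2 promoters, and the match lies 118 bases before the start of the second (chr6:115758950-115759249, minus strand, GRCm38.p6), which is shown because Tmem40 is the called gene with the largest positive fold change. Capitals mark the motif, and whether Runx1 binds there was not measured.
Tmem40 promoter 2: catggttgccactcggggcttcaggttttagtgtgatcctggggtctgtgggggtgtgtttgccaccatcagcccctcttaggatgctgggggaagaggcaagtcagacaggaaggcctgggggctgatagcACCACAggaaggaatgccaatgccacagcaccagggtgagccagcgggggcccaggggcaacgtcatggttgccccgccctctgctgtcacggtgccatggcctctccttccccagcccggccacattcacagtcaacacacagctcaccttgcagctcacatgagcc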

How the data were processed

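Raw read counts per gene symbol of 12 libraries were used as the authors deposited them. Per the labels' protocols, RNA was amplified with the Ovation v2 kit and libraries were made with Nextera XT, which does not keep strand. FastQC 0.11.2, HISAT2 2.0.4, featureCounts 1.5.2 and build mm10 are named in the submitters' processing notes, while for the counting options no source used here gives a setting. A deposited sheet ties columns to genotypes without replicate numbers, so libraries carry their column identifiers. The 95.7% of symbols found in the GENCODE annotation of GRCm38 received coordinates.

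Testing was by edgeR 4.0.16 in R 4.3.3, with its quasi-likelihood F test, TMM scaling and default count filter, fitted over all 12 libraries, with 1 term per genotype and the contrast Runx1mut minus miR146aKO. P-values were adjusted by Benjamini-Hochberg over 12744 genes, 5211 symbols had no count, and edgeR estimated a common biological coefficient of variation of 0.809. The procedure was tested on simulated data. Levels are CPM with TMM factors, and list levels use log2 CPM with a prior count of 2. Counting intervals are exact binomial at 95%, with a floor of 3 counts. Between 4.77% and 16.4% of counts in the 6 libraries fell on Rn45s, the ribosomal RNA precursor. Alternatives were other size factors, no count filter, only 6 libraries, DESeq2 1.42.0, limma-voom (limma 3.58.1), no Rn45s, a Y-linked covariate, leaving out each library, and a prior count of 0.5.

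Named genes were the called ones and then those of smallest p up to 12 per direction, without overlap between genotypes, of mean log2 CPM not under 2 and no predicted gene models, plus up to 4 of smallest p per list and Runx1, Traf6, Irak1, Irak2, Mir146, Kit, Ly6a and Y-linked genes. Not all genes that this rule picks are described here. The lists and the comparison were chosen with earlier results of these data known. MicroRNA and promoter sequences are from RefSeq, and 3′ UTRs from the GENCODE annotation.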

Additional observations from a re-analysis of the deposited data

How the results depend on the processing

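With size factors of DESeq2 in edgeR, or without Rn45s, the 18 calls remained and no direction changed. Other choices moved the count. Without a count filter edgeR called 702 genes (243 higher and 459 lower in Runx1mut). DESeq2, also run without that filter, called 807 (274 and 533). With only the 6 libraries edgeR called 33 (4 and 29), with 14 of the 18 among them. Limma-voom called 43 (3 and 40), with 11 of the 18. A Y-linked covariate left 6 (1 and 5), with 5 of the 18: Ptprc, B3gnt5, Ablim1, Ext2 and Tmem40. Leaving out 1 library at a time gave 0 to 130 calls, 0 to 30 higher and 0 to 100 lower. Besides the libraries named above, A001 and A051 of miR146aKO_Runx1mut moved the count, to 52 and 37 without them. The cause of these shifts was not tested.

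All 18 called genes kept their direction under every alternative. Among the other named genes, none of them called, 3 changed sign: the log2 fold change of Hoxa9 ran from -0.49 (without A042) to 2.69 and that of Traf6 from -0.40 to 0.14 (without A058; 0.0881 without A047) over left-out libraries, and that of Uty was 0.0311 with the Y-linked covariate. List medians of log2 fold change also shifted by setting. Plasma cell genes were at -5.07 with limma-voom and -0.85 with the Y-linked covariate. T and NK genes were at -1.64 and stem cell genes at 0.58 with limma-voom. Some settings also changed which members were tested, so the medians that follow cover partly different genes. Mast cell genes were at 2.23 with DESeq2 (7 tested, against 9). With only the 6 libraries, erythroid genes were at -0.96 (11 tested, against 20) and stromal genes at -1.36 (10, against 18). Hoxa and Meis genes were at 1.83 there (7, against 14). Dendritic genes, of which 11 were tested in the fit reported, were at -2.33 without a count filter (16), -2.46 with DESeq2 (16) and -2.40 with limma-voom (11). RUNX and CBF family genes, at 0.51 in the fit reported (7), were at 0.21 with only the 6 libraries (6), 0.13 with DESeq2 (6) and 0.24 with limma-voom (7). With limma-voom the log2 fold change was -9.23 for Fcer2a and 7.54 for Tmem40. No paired analysis was possible because the columns of the count table carry no replicate numbers. Leaving out a library leaves a genotype with 2, and DESeq2 and limma-voom were not run in that way. The count filter then passed more genes, 13349 to 13548 against 12744, so the genes behind those counts and list medians can differ. Shallow miR146aKO libraries limit low genes most.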
